A study of Mus musculus with 2 samples.

Results

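The Wnt pathway was read here through 50 protein-coding genes that encode its ligands, secreted antagonists, receptors and effectors, out of 47643 Ensembl gene IDs listed in each library. Members were chosen by name, with no measured value: every annotated Wnt, Frizzled (Fzd) and Sfrp gene, Dkk1 to Dkk4, and Lrp5, Lrp6, Axin1, Axin2, Apc, Ctnnb1, Gsk3a, Gsk3b, Tcf7, Tcf7l1, Tcf7l2, Rnf43 and Znrf3. PolyA RNA came from E14 cells, a mouse embryonic stem cell line (129/Ola strain background, from blastocysts), labelled as an AGO1&AGO2 Double KO. The cells were kept in DMEM with 15% serum, 100 U/mL LIF, Beta-mercaptoethanol and antibiotics on gelatine. The series has 1 genotype in 2 libraries, replicate 1 with 34798975 counts and replicate 2 with 29789560 counts. Cells with intact Ago1 and Ago2 were not analysed here, so every value below is a level in libraries labelled as the double knockout, and none is an effect of it. Whether they come from 1 clone, several clones or separate cultures is not stated in the labels, so the spread between them may be technical.

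Wnt proteins carry a lipid that is attached before secretion, and they bind a Frizzled receptor together with the co-receptor LRP5 or LRP6 on the receiving cell. Without that signal, a destruction complex built on AXIN and APC lets GSK3 phosphorylate beta-catenin, which is then degraded. With it, beta-catenin accumulates, enters the nucleus and joins TCF/LEF factors at their target genes. In mouse embryonic stem cells beta-catenin activity supports self-renewal, largely by relieving repression by TCF7L1, and Wnt signals from the medium or from the cells themselves hold back differentiation.

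The labelled cell type was checked first. All 7 embryonic stem cell markers listed for this purpose passed 1 CPM (CPM is the count scaled to the size of the library) in both libraries, with summed levels of 4098 and 4142 CPM in replicates 1 and 2. Of 7 fibroblast markers, which feeder cells would bring, 2 passed (Thy1 and Col1a1), and Col3a1, Lum and Postn had no count. The list summed to 26.8 and 26.2 CPM, of which Thy1 alone had 24.7 and 23.1 CPM. Summed levels were 7.24 and 5.54 CPM for extraembryonic endoderm (1 of 5 genes at 1 CPM), 6.35 and 5.94 CPM for mesoderm and primitive streak (1 of 5), and 3.62 and 4.03 CPM for neural markers (2 of 4). Reads were assigned to both targeted genes, with 2463 and 4205 counts for Ago1 and 4304 and 3839 for Ago2. Ago1 was lower in replicate 1 (log2 ratio -0.99; adjusted p = 1.37e-08 in edgeR's exact test), so the libraries differ at a targeted gene. Counts summed over a whole gene cannot show an edited exon, so they do not check the genotype.

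Argonaute proteins find their targets through the seed of a bound microRNA, bases 2 to 8 of its sequence, so the annotated 3' UTRs of the members were searched for the 7 letters that pair with 2 seeds important in these cells. The seeds, in capitals below, belong to the miR-290 cluster, the main microRNA family of mouse embryonic stem cells, and to let-7, a family that rises when these cells differentiate. miR-291a-3p, miR-294-3p and miR-295-3p share the first seed with miR-302b-3p and miR-302d-3p. The mature sequences are from RefSeq (GRCm38.p6).
miR-294-3p: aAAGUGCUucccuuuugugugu
miR-291a-3p: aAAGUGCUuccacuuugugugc
let-7a-5p: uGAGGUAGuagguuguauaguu

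The letters AGCACTT, which pair with the miR-294-3p seed, occurred 15 times in the 3' UTRs of 12 of the 50 members (24%), against 14.7% of 21028 protein-coding genes with an annotated 3' UTR. The members' 3' UTRs were longer, with a median of 1789 bases against 961 bases, and per kilobase the letters occurred 0.140 times in the members and 0.121 times over all genes. CTACCTC, which pairs with the let-7 seed, was found in 11 members (22%), against 9.02% of all genes, or 0.102 against 0.0699 times per kilobase. Below are 10 of the matches in members with at least 1 CPM in both libraries, 29 bases each from GENCODE M21 transcripts, with the matched letters in capitals. The first 7 match miR-294-3p and lie in genes of a receptor, a GSK3 kinase, an antagonist, a TCF factor, a ligand and a receptor ligase.
Fzd10, chr5:128603959-128603987, plus strand: agtggtcttgaAGCACTTgggaagacaaa
Gsk3b, chr16:38240593-38240621, plus strand: cgggaaagaccAGCACTTacttgagtgcc
Sfrp4, chr13:19631685-19631713, plus strand: ttttgagggagAGCACTTttattatttta
Sfrp4, chr13:19631999-19632027, plus strand: tttgcacacagAGCACTTtccaatcactg
Tcf7, chr11:52252450-52252478, minus strand: cctataaccccAGCACTTgcgagatagag
Wnt7b, chr15:85535458-85535486, minus strand: ctctggaggggAGCACTTagccccaataa
Znrf3, chr11:5276697-5276725, minus strand: atttctcccatAGCACTTaatattttgta
Tcf7l1 (let-7), chr6:72626990-72627018, minus strand: gagatatctctCTACCTCttctcttcctg
Wnt3a (let-7), chr11:59249324-59249352, minus strand: ggccggaagtcCTACCTCaatggcttgga
Dkk3 (let-7), chr7:112117724-112117752, minus strand: tgtttcagctcCTACCTCactgtcagcac
Fzd3, Fzd8 and Wnt9a, also above 1 CPM, hold AGCACTT as well, and Fzd3, Fzd4 and Wnt9a hold CTACCTC. A match is a run of letters and no measured site. The levels of these genes are given below, and no library of cells with an unmodified genotype was analysed here to set them against.

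Of the 50 members, 30 (60%) reached 1 CPM in both libraries, and 58% of all 21620 protein-coding genes did so. The share for the module as a whole therefore lies close to the background. By pathway step, 6 of 19 Wnt ligands and 4 of 8 secreted antagonists reached it, as did 8 of 10 Frizzled receptors, both co-receptors, 1 of 2 receptor ligases, all 5 destruction complex genes, Ctnnb1 and all 3 TCF genes. Together the members took 0.201 and 0.206% of counts in replicates 1 and 2. In TPM, which scales counts to exon length as well as to library size and is used below wherever genes are set side by side, they summed to 1049 ± 12.3 (SD, n = 2). Ctnnb1 alone made up 41.0 ± 0.789% of that sum, the destruction complex 17.6 ± 0.979%, the Frizzled receptors 14.3 ± 0.608%, the secreted antagonists 9.53 ± 0.176%, the TCF factors 8.93 ± 0.562%, the co-receptors 5.33 ± 0.341%, the ligands 2.47 ± 0.321% and the ligases 0.819 ± 0.0127%. All transcripts of the 19 ligand genes thus summed to 25.9 ± 3.67 TPM, below the level of Fzd7 alone.

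**Figure D1:**
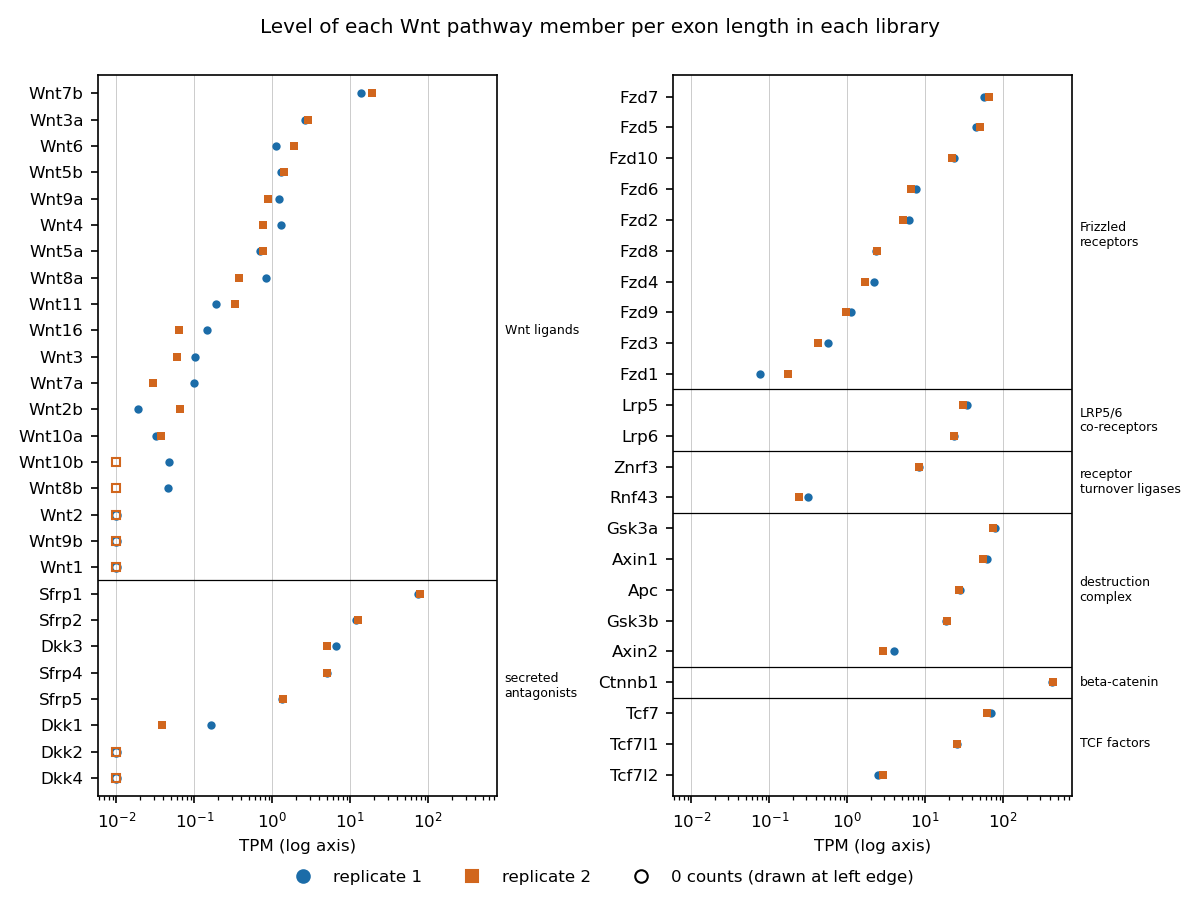
Level of each of the 50 members in TPM (log axis) in replicate 1 (circles) and replicate 2 (squares), grouped by pathway step and ordered by mean level; open symbols at the left edge stand for 0 counts. Ctnnb1 stands at 421 and 440 TPM, and most ligands lie below 1 TPM. The widest gaps between the libraries stand where counts are few. Wnt7b, with 837 and 1008 counts, also differs (13.6 and 19.0 TPM).

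Among the ligands, Wnt7b stood well above the rest. It had 837 and 1008 counts in replicates 1 and 2, or 13.6 and 19.0 TPM (ENSMUSG00000022382; GRCm38 chromosome 15, 85535437 to 85582473, minus strand), and made up 62.4 ± 5.97% of all ligand transcripts per exon length. Wnt7b is a ligand known from lung, placenta and brain. Wnt3a, the ligand most used to switch on beta-catenin signalling in culture, came next with 92 and 86 counts, 2.65 and 2.88 TPM. Both Wnt7b values lay above both Wnt3a values, by 5.13 and 6.61 times.

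The other ligands at 1 CPM in both libraries were close to that limit. Wnt5b had 1.29 and 1.39 TPM and Wnt5a 0.701 and 0.767 TPM; both act mostly outside the beta-catenin branch. Wnt9a had 1.22 and 0.888 TPM, and Wnt4, a ligand of kidney and gonad development, 1.29 and 0.749 TPM. The range of Wnt4 overlapped those of Wnt5b, Wnt9a and Wnt5a, so Wnt4 cannot be ranked against them. Both Wnt9a values lay above both Wnt5a values. Wnt6 passed 1 CPM in replicate 2 only, with 31 and 45 counts or 0.891 and 1.51 CPM. Per exon length it had 1.12 and 1.90 TPM. Its mean of 1.51 TPM lay above that of Wnt5b (1.34 TPM), although the ranges overlapped.

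The remaining 12 ligand genes had at most 18 counts in a library. Wnt8a had 18 and 7 counts, Wnt11 10 and 15, and Wnt16 8 and 3. Wnt3, a ligand needed for the primitive streak in the mouse embryo, had 4 and 2 counts, Wnt7a 4 and 1, Wnt2b 1 and 3, and Wnt10a 1 and 1. Wnt10b and Wnt8b had 2 counts in replicate 1 and none in replicate 2. No count was seen for Wnt1, Wnt2 or Wnt9b. Their exact 95% Poisson intervals reach up to 0.106 and 0.124 CPM in replicates 1 and 2. These limits cover counting error only, and in bulk RNA few cells with a transcript and little of it in every cell cannot be told apart.

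Several Wnt genes lie side by side in pairs kept from an ancient cluster, and 4 pairs fell within 100 kb of each other. Wnt3a and Wnt9a on chromosome 11 are divergent, 16.2 kb apart, and both passed 1 CPM in both libraries. Wnt6 and Wnt10a on chromosome 1 lie in the same direction 6.19 kb apart, with 31 and 45 counts for Wnt6 against 1 and 1 for Wnt10a. Wnt9b and Wnt3 on chromosome 11 (24.3 kb) and Wnt10b and Wnt1 on chromosome 15 (11.7 kb) are divergent pairs in which no gene had more than 4 counts in a library.

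Of 4 members with no count and a promoter window, 3 had at least 20 CG pairs in it, as many promoters of expressed genes do. RefSeq windows of 300 bases (250 before to 50 after a start) matched 33 of the 50 members, and where a gene had several the one with the most CG pairs was taken. The median was 36 CG pairs over the 16 members at 1 CPM and 24 over the 17 others. Over all protein-coding genes with a window it was 22 for 9782 genes at 1 CPM and 4 for 6605 others. At least 20 CG pairs stood in 9 of the 17 members below 1 CPM (52.9%), against 12.1% of all protein-coding genes below it. This comparison was chosen after the counts were seen, and genes of a family are not independent. Wnt1 shows it: its window holds 26 CG pairs, in capitals below, and the gene had no count. The Ctnnb1 window, with 51, is printed for comparison.
Wnt1, chr15:98789607-98789906, plus strand: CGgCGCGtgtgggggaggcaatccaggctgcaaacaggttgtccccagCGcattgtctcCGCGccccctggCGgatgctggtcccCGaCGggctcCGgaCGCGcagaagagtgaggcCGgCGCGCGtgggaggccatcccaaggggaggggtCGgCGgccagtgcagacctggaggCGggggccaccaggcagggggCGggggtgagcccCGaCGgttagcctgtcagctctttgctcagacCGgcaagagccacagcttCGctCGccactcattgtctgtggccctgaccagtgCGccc
Ctnnb1, chr9:120933328-120933627, plus strand: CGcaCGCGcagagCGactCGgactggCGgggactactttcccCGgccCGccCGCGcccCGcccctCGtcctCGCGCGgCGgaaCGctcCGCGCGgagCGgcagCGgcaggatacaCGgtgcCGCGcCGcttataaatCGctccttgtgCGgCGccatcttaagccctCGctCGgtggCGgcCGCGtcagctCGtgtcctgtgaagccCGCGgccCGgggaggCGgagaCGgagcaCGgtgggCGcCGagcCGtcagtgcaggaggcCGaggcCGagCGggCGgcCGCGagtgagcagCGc

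Secreted antagonists were led by Sfrp1, which encodes a Frizzled-related protein that binds Wnt ligands outside the cell. It had 4009 and 3694 counts, or 72.8 and 78.0 TPM (ENSMUSG00000031548; chromosome 8, 23411502 to 23449632, plus strand), higher than any ligand or Frizzled gene on this scale. Sfrp2 followed with 11.9 and 12.5 TPM, Dkk3 with 6.50 and 5.09 TPM and Sfrp4 with 5.07 and 5.06 TPM. Dkk3 is the member of its family that does not act as a plain LRP6 antagonist. The Sfrp1 values exceeded those of Sfrp2 by 6.13 and 6.25 times, and Dkk3 and Sfrp4 lay next to each other (1.28 and 1.01 times). Of the Sfrp2 exon length, 16.1% overlaps an antisense gene, and how many of its counts belong there was not measured.

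The DKK antagonists that bind LRP5 and LRP6 were nearly or wholly without reads. Dkk1, itself a target of beta-catenin signalling, had 5 and 1 counts, and Dkk2 and Dkk4 had none. Sfrp5 fell just under the limit with 32 and 28 counts, or 0.920 and 0.940 CPM. Within these 8 genes, those at 1 CPM in both libraries were therefore Sfrp1, Sfrp2, Sfrp4 and Dkk3, and Dkk1, Dkk2 and Dkk4 were at or below 0.144 CPM in both.

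Of the Frizzled receptors, Fzd7 and Fzd5 were the most abundant. Fzd7, a receptor known to support self-renewal of pluripotent cells, had 3239 and 3235 counts, or 56.8 and 65.9 TPM (ENSMUSG00000041075; chromosome 1, 59482424 to 59486955, plus strand). Fzd5 had 3881 and 3780 counts, or 44.6 and 50.5 TPM (ENSMUSG00000045005; chromosome 1, 64730558 to 64737751, minus strand). Fzd7 thus stood above Fzd5 per exon length by 1.27 and 1.31 times, whereas in plain counts Fzd5 was the higher. An unclassified gene on the other strand overlaps 17.8% of the Fzd5 exon length. Fzd7 made up 40.8 ± 2.10% of Frizzled transcripts per exon length and Fzd5 31.6 ± 1.07%.

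Fzd10 came next with 23.1 and 22.2 TPM, 15.1 ± 1.27% of the family. Fzd6, a receptor best known for planar cell polarity, had 7.52 and 6.54 TPM and Fzd2 6.20 and 5.17 TPM. Each of these 5 receptors lay apart from the next in both libraries, although Fzd6 exceeded Fzd2 by only 1.21 and 1.26 times. Fzd8 had 2.34 and 2.41 TPM, Fzd4, the receptor of the ligand Norrin, 2.17 and 1.69 TPM, and Fzd3 0.564 and 0.426 TPM. Below 1 CPM lay Fzd9, with 32 and 24 counts (0.920 and 0.806 CPM), and Fzd1, with 4 and 8 counts. Per exon length, however, Fzd9 had 1.11 and 0.967 TPM and stood above Fzd3 in both libraries.

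Both co-receptor genes were well expressed. Lrp5 had 4219 and 3193 counts, or 34.4 and 30.3 TPM, and Lrp6 4056 and 3489 counts, or 23.6 and 23.6 TPM. Lrp5 was the higher per exon length, with 57.8 ± 2.21% of the pair, but its lead depended on the length used. Of the pair's counts, 51.0% were from Lrp5 in replicate 1 (95% interval 49.9 to 52.1%, exact by Clopper-Pearson), against 47.8% in replicate 2 (46.6 to 49.0%), so in counts the order differed between the libraries.

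The ligases that remove Frizzled receptors from the surface differed in level. Znrf3 had 825 and 712 counts, or 8.30 and 8.33 TPM. Rnf43, its close relative and an established beta-catenin target in the gut, had 26 and 17 counts, 0.747 and 0.571 CPM. Znrf3 passed 1 CPM in both libraries and Rnf43 in neither.

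**Figure D2:**
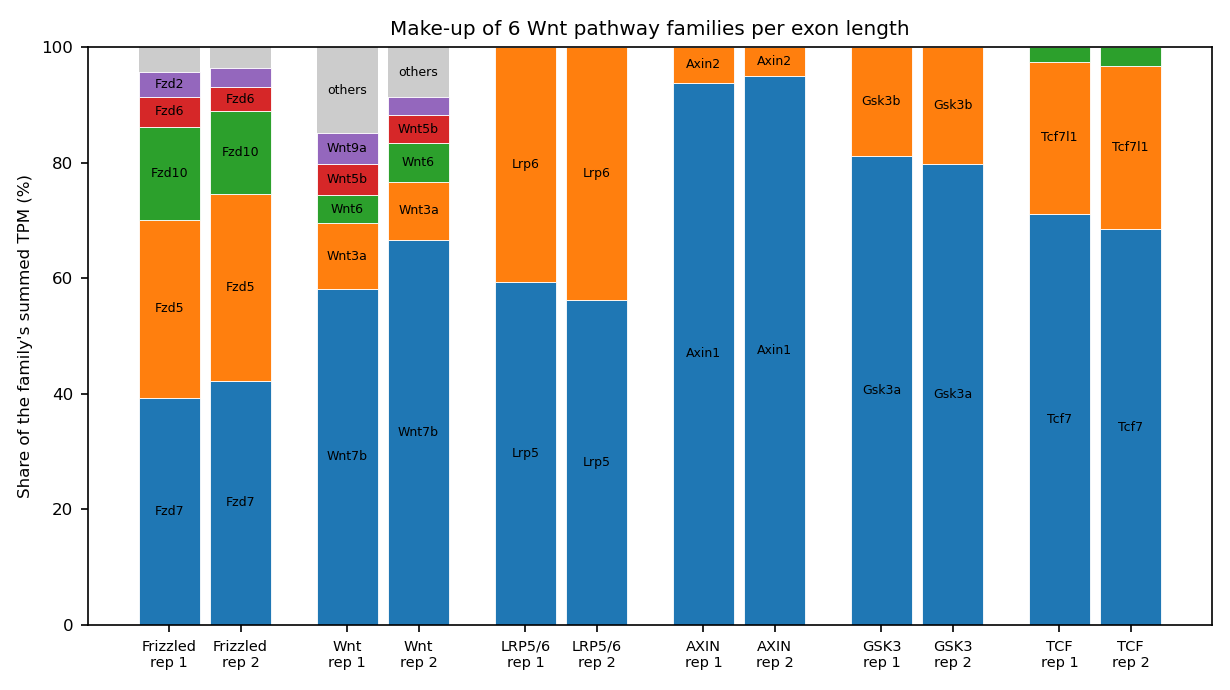
Share of each family's summed TPM (%) taken by its members in replicate 1 and replicate 2, for the Frizzled, Wnt, LRP5/6, AXIN, GSK3 and TCF genes; colours rank members within a family, grey holds the members beyond the fifth, and the smallest segments carry no name. Wnt7b takes 58.2 and 66.6% of the ligands, Axin1 93.8 and 94.95% of the AXIN pair and Gsk3a 81.2 and 79.7% of the GSK3 pair.

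In the destruction complex, the scaffold Axin1 far exceeded its relative Axin2. Axin1 had 2949 and 2263 counts, or 61.2 and 54.6 TPM (ENSMUSG00000024182; chromosome 17, 26138688 to 26195811, plus strand). Axin2, the most widely used reporter gene of beta-catenin signalling, had 278 and 173 counts, or 4.01 and 2.90 TPM (ENSMUSG00000000142; chromosome 11, 108920349 to 108950783, plus strand). Axin2 therefore made up 5.60 ± 0.781% of AXIN transcripts per exon length, and its share of the pair's counts was 8.61% (exact 95% interval 7.67 to 9.64%) and 7.10% (6.11 to 8.19%). Apc, the tumour suppressor scaffold, had 5661 and 4773 counts, or 27.9 and 27.4 TPM.

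The 2 GSK3 kinase genes had similar counts and different levels per exon length. Gsk3a had 2873 and 2346 counts, or 78.7 and 74.7 TPM, and Gsk3b 2260 and 2025 counts, or 18.3 and 19.0 TPM. The annotated exons of Gsk3b are longer, 9831 bases against 2900 bases, so Gsk3a took 80.4 ± 1.03% of the pair per exon length and 56.0 and 53.7% of its counts. An antisense gene overlaps 28.3% of the Gsk3a exon length, and the part of its reads that belongs there was not measured.

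Ctnnb1, which encodes beta-catenin, was the most abundant member. It had 27521 and 24728 counts, or 421 and 440 TPM (ENSMUSG00000006932; chromosome 9, 120929216 to 120960507, plus strand), above 98.9% of protein-coding genes. The protein also anchors cadherins at cell contacts, so its transcript does not report signalling. Exons of Ulk4 on the other strand overlap 14.6% of its exon length.

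Of the TCF factors, Tcf7 was the highest in these libraries. It had 2282 and 1756 counts, or 69.0 and 61.8 TPM (ENSMUSG00000000782; chromosome 11, 52252371 to 52283014, minus strand). Tcf7l1, the repressor that beta-catenin counteracts in embryonic stem cells, had 1260 and 1085 counts, or 25.5 and 25.5 TPM. Tcf7 exceeded Tcf7l1 by 2.71 and 2.42 times per exon length and also in counts. Tcf7l2 had 270 and 275 counts, or 2.44 and 2.89 TPM, and took 2.86 ± 0.487% of the 3 genes; its mean level was 2.67 TPM, and 4.96 TPM when scaled to the longest transcript. Counts per gene do not separate the long TCF forms, which bind beta-catenin, from short forms that lack that part.

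TCF/LEF factors recognise a short core, searched here as ATCAAAG or TTCAAAG on either strand of the promoter windows. Every window of a gene was searched here, not only the one with the most CG pairs, so genes with several windows had more chances. The core stood in the windows of 4 of the 33 matched members (12.1%), against 8.69% of 16522 protein-coding genes with a window. Counted by window, it stood in 4 of 40 (10%), against 7.47% of 20150. The Wnt5b match lies in a window with 7 CG pairs. The 4 matches, in capitals, are shown with their surroundings as read on the gene's strand.
Dkk1, chr19:30549596-30549624, minus strand: tcctcccaaagCTTTGAAatcccatcccg
Gsk3a, chr7:25237992-25238020, minus strand: tgactgtgtttTTCAAAGtgcttccaagt
Wnt11, chr7:98835050-98835078, plus strand: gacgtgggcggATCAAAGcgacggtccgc
Wnt5b, chr6:119449440-119449468, minus strand: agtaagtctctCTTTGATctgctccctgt
They include genes with many reads (Gsk3a) and with almost none (Dkk1), and the Axin2 window of 300 bases holds none of these letters. No motif match was tied to a level.

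Other genes of the pathway were read from a list of 53, chosen by role with earlier results of these data known. Of these 53 genes, 42 reached 1 CPM in both libraries, a larger share than the 58% over all protein-coding genes. Among the genes that act on the ligand itself, Notum, a secreted enzyme that removes the lipid from Wnt proteins, led with 111 and 118 TPM. Porcn, the enzyme that attaches the lipid, had 20.4 and 26.6 TPM. Wls, the carrier that takes lipid-bearing Wnt proteins to the cell surface, had only 55 and 26 counts, or 0.497 and 0.273 TPM. Notum thus stood above every Wnt ligand and antagonist, and Wls was below 1 CPM in replicate 2.

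**Figure D3:**
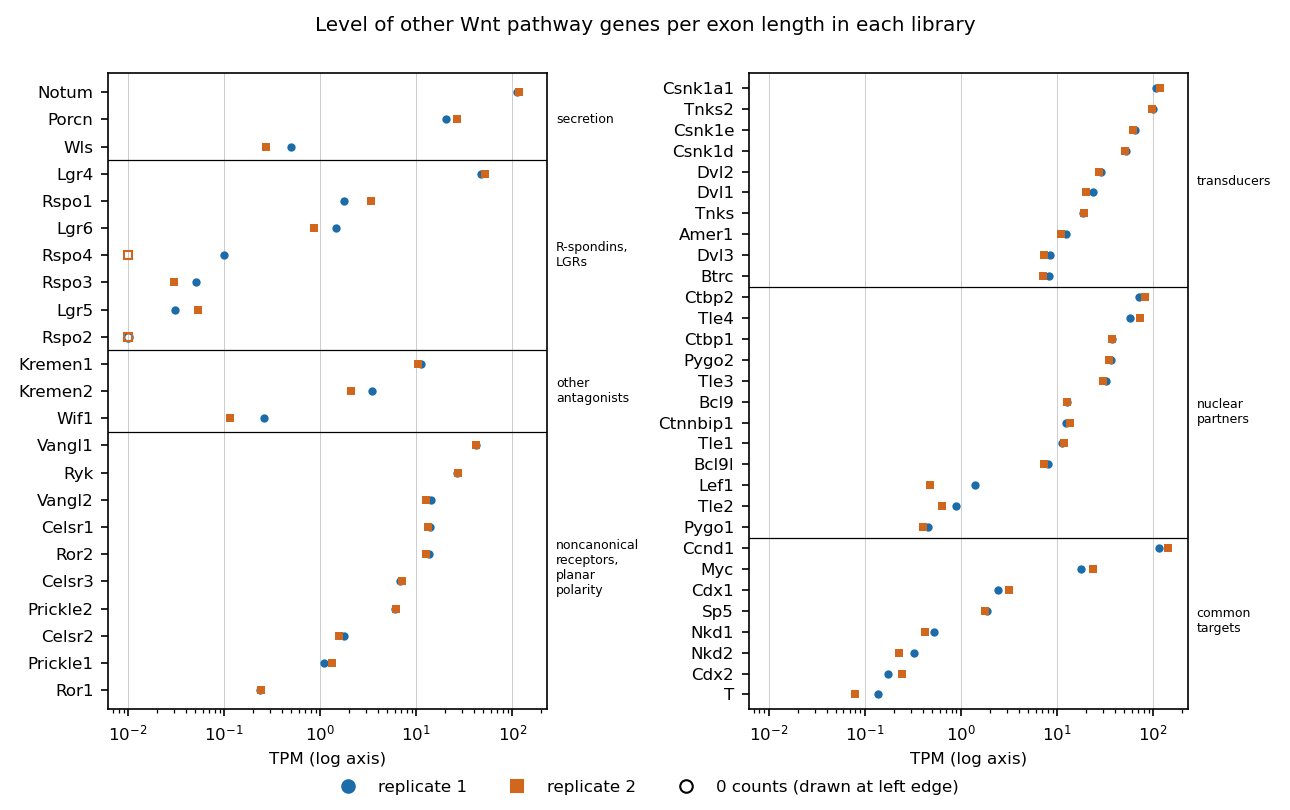
Level in TPM (log axis) of 53 other pathway genes in replicate 1 (circles) and replicate 2 (squares), grouped by role; open symbols at the left edge stand for 0 counts. Notum, Csnk1a1 and Ccnd1 lie near or above 100 TPM, while Wls, Lgr5 and T lie below 1 TPM.

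R-spondins strengthen Wnt signals by clearing the ligases ZNRF3 and RNF43 through LGR receptors. Lgr4 had 46.8 and 51.7 TPM and led that group. The ligand gene Rspo1 had 1.76 and 3.34 TPM, and Lgr5, a known target gene in adult stem cells, had 4 and 6 counts. The DKK1 receptor gene Kremen1 had 11.1 and 10.5 TPM and Kremen2 3.44 and 2.09 TPM. In the planar polarity and noncanonical group 9 of 10 genes passed 1 CPM, led by Vangl1 with 41.3 and 42.0 TPM and the co-receptor gene Ryk with 26.2 and 27.3 TPM.

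Inside the cell, every listed transducer and nuclear partner reached 1 CPM in both libraries, against 58% of all protein-coding genes. All 10 transducers passed 1 CPM, led by the kinase gene Csnk1a1, which primes beta-catenin for GSK3, with 106 and 119 TPM, and by Tnks2, a tankyrase that destabilises AXIN, with 100.1 and 97.2 TPM. All 12 nuclear partners passed too, led by the co-repressors Ctbp2 (72.0 and 81.6 TPM) and Tle4 (57.9 and 73.6 TPM). Lef1, the fourth TCF/LEF gene, had 156 and 45 counts, or 1.41 and 0.473 TPM. Of 8 common targets of beta-catenin 4 passed 1 CPM (50%), near the 58% of all protein-coding genes. Ccnd1 with 116 and 143 TPM and Myc with 17.8 and 23.8 TPM, which many other signals also control, were the highest of these, and Cdx1 and Sp5 (49 and 41 counts) passed as well. Below 1 CPM lay Nkd1 with 30 and 21 counts, Nkd2, Cdx2 and T (brachyury) with 4 and 2 counts.

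The libraries were then compared with each other, to see how far the levels above hold between samples. A two-sided exact binomial test on the reads of each gene, with Benjamini-Hochberg adjustment over all 19078 genes with at least 10 counts, weighs a difference against counting error only and compares these libraries, not conditions. It could test 38 members, since 12 had fewer than 10 counts, and 11 of the 38 (28.9%) differed, 6 higher and 5 lower in replicate 1. Over all tested genes 24.2% differed, 13.1% higher and 11.2% lower in replicate 1, so the members lay near the background. Among genes with at least 100 counts, the 28 members had a median absolute log2 ratio of 0.15, and all 13553 genes 0.12.

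The differences were small, and none of the 11 exceeded 2-fold. Higher in replicate 1 were Wnt4 (log2 ratio 0.77 ± 0.30, counting SE; adjusted p = 0.0417 in the exact binomial test), Axin2 (0.46 ± 0.14; 0.00585), Dkk3 (0.35 ± 0.14; 0.0479), Lrp5 (0.18 ± 0.03; 1.7e-06), Axin1 (0.16 ± 0.04; 0.000658) and Tcf7 (0.16 ± 0.05; 0.00434). Lower in replicate 1 were Wnt7b (-0.49 ± 0.07; 1.27e-11), Fzd7 (-0.22 ± 0.04; 2.03e-08), Fzd5 (-0.18 ± 0.03; 4.79e-07), Sfrp1 (-0.10 ± 0.03; 0.00942) and Ctnnb1 (-0.07 ± 0.01; 1.47e-06). No grouping of these genes by pathway step was tested.

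With the spread between these libraries included, edgeR's exact test called 0 of the 38 members and 0.456% of all genes. That spread was estimated from the same differences that the test weighs, so the low number of calls is partly built in. Wnt7b alone had an unadjusted p under 0.05 in this exact test (p = 0.0123; adjusted p = 0.626 by edgeR's exact test). Across genes the log2 ratio moved with GC content (Spearman rho 0.19 over 18978 genes). After removal of that trend 7 members differed, with Wnt4, Dkk3, Axin1 and Tcf7 no longer among them. The 5 lower in replicate 1 stayed with larger ratios in size (Wnt7b -0.58), and Axin2 and Lrp5 stayed with smaller ones (0.39 and 0.11). The share of all genes that differed after this removal is not given here, so the fall is not particular to the members. Of the other pathway genes, 8 were higher and 9 lower in replicate 1 of 49 tested by the binomial test. Both shares lay above those over all tested genes, 13.1% higher and 11.2% lower, without matching for counts. In edgeR's exact test none of these 49 genes was called, against 0.456% of all genes. Lef1 came closest, with a log2 ratio of 1.56 ± 0.24 (edgeR's exact test, adjusted p = 0.0659).

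**Figure D4:**
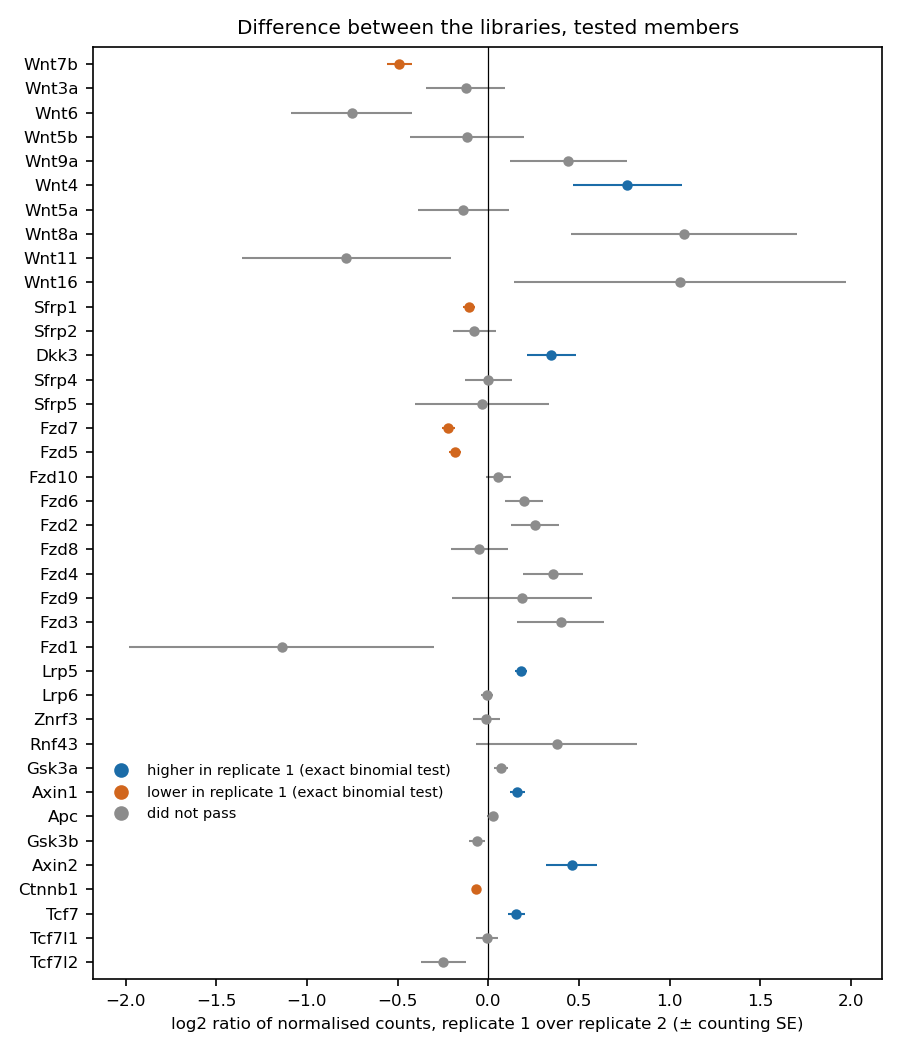
Log2 ratio of normalised counts, replicate 1 over replicate 2, for the 38 tested members in pathway order, with bars of 1 counting SE. Blue points were higher and orange points lower in replicate 1 in the exact binomial test, and grey points did not pass; Wnt7b lies at -0.49 and Axin2 at 0.46.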

How the data were processed

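The authors deposited unnormalised counts of reads for each Ensembl gene ID, 1 file per library. Per the labels' protocols, RNA was taken with Trizol and 1 ug of it went into TruSeq polyA libraries, reverse-stranded. STAR 2.4.2a and mm10 (GRCm38) are named per the submitters' processing notes. What tool counted the reads, with which strand setting and annotation, is not given in the sources used here, so genes that overlap or lie antisense may share reads.

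GENCODE M21 (GRCm38) named 47224 of 47643 IDs and gave positions, merged exon lengths and 3' UTRs (the longest per gene); 419 IDs stayed unnamed but in the totals. CPM and TPM were computed from the counts, which sum to 34798975 and 29789560, so 3 counts equal 0.0862 and 0.101 CPM. Replicates were compared by two-sided exact binomial tests at TMM-scaled sizes (edgeR 4.0.16), adjusted by Benjamini-Hochberg across the genes with 10 counts or more, threshold 0.05; a pseudocount of 0.5 entered the log2 ratios. For edgeR's exact test the trended dispersion came from treating both libraries as 1 group. The binomial test was tested on simulated data. Every member was accounted for, with levels in both libraries for those at 1 CPM in both; of the other pathway genes the 2 highest of each role were named by rule, and Wls, Lgr5, Lef1, Cdx1, Sp5, Nkd1, Nkd2, Cdx2 and T were named after their values were seen. Members and lists were chosen with earlier results of these data known. Alternatives were other thresholds, count filters, size factors (DESeq2 1.42.0), pseudocounts, transcript lengths, a GC correction, and each library alone.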

Additional observations from a re-analysis of the deposited data

How the results depend on the processing

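The number of members at the expression limit was 30, and 34, 25 and 28 at 0.5 CPM, 2 CPM and 1 TPM, 30 with TMM-scaled totals, and 30 to 31 with each library alone. The 11 members that differed between the libraries (6 higher, 5 lower in replicate 1) stayed within 1.5 times under DESeq2 size factors, plain totals and other count filters. With edgeR's exact test the counts were 0, 0 and 0 (1 at an unadjusted p under 0.05), and after GC removal 7, 2 and 5. The share of all genes after GC removal is not given here. Without a count filter the adjusted p was 0.0574 for Wnt4 and 0.0659 for Dkk3 in the exact binomial test. Scaled to the longest transcript, leading shares were 69.5% for Wnt7b, 50.7% for Lrp5, 93.0% for Axin1, 81.7% for Gsk3a and 63.9% for Tcf7. In plain counts the shares were 36.0% for Fzd7, 71.3% for Wnt7b, 49.4% for Lrp5, 92.1% for Axin1, 54.8% for Gsk3a and 58.1% for Tcf7. Lrp5 and Lrp6 therefore have no settled order. Fzd7 led its family per exon length and, with 40.6%, when scaled to the longest transcript. In plain counts Fzd5 led in both replicates, with 41.7 and 43.4%. With each library alone the shares ran from 39.3 to 42.3% (Fzd7), 58.2 to 66.6% (Wnt7b), 56.2 to 59.4% (Lrp5), 93.8 to 94.95% (Axin1), 79.7 to 81.2% (Gsk3a) and 68.5 to 71.2% (Tcf7). No paired analysis was possible because the series has 1 group. Low counts limit most ligands: with under 10 counts in all, 12 members could not be tested.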
